A study of Mus musculus with 304 samples.

Results

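Dentate granule cells of the mouse hippocampus that had been exposed to kainate 1 day earlier differed widely in how much Id2 they held, and the cells with the most Id2 were set against those with the least. Of 58 cells of the injected side labelled as passing quality control, the 19 with the highest Id2 CPM (counts per 1000000 reads counted in genes of that cell) form the high-Id2 group and the 19 with the lowest form the low-Id2 group. The other 20 are the middle cells. The series has 304 labelled samples, of which 291 have a column of counts. Each sample is 1 granule cell: its cytosol was taken up through a patch pipette and made into a library of its own.

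All 58 cells come from mice that received kainic acid in the hippocampus, so both Id2 groups share that treatment, and the labels give no strain, age or animal. For levels beside them, 29 cells taken 14 days after kainate, 31 cells of mice without an injection, and 59 and 71 cells taken 1 month after an adeno-associated virus carrying GFP or Id2 were read. The labels name no promoter for the virus, and cells of each of these groups were also labelled as passing. Because no animal is named, a group of cells counts as 1 sample: no difference was tested, and the spread is shown by the lowest, median and highest cell. The groups were made from measured Id2 in the same cells, so every difference below is a description of cells chosen by that readout.

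Id2 codes for an inhibitor of DNA binding. It has the helix-loop-helix surface by which basic helix-loop-helix (bHLH) transcription factors pair, but it lacks the basic stretch that contacts DNA, so that a factor paired with it is held off its E-box sites. The E proteins Tcf3, Tcf4 and Tcf12 are its best known partners, and Id1, Id3 and Id4 are its relatives. Granule cells send mossy fibre axons to area CA3 and are known for a strong response of neuropeptide and early transcription factor genes to seizures.

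Because Id proteins act on factors that bind E-boxes, the 250 bases before the start of Id2 and of a gene from each side of the comparison are shown, from RefSeq on GRCm38.p6 (minus strand in each case). Capitals mark each CANNTG (E-box) and each TGACGTCA (cyclic AMP response element), searched on both strands; both motifs read the same on either strand.
Id2, chr12:25096093-25096342: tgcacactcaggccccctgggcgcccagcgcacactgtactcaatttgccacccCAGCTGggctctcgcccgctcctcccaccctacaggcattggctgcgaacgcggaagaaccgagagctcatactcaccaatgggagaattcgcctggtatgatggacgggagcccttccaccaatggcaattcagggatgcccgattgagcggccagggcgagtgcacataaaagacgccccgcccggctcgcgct
Prox1, chr1:190170828-190171077: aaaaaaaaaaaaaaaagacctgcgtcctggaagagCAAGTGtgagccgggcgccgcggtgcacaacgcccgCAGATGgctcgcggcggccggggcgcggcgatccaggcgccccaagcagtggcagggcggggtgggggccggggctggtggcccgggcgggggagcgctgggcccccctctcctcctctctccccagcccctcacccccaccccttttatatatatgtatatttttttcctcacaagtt
Scg2, chr1:79440027-79440276: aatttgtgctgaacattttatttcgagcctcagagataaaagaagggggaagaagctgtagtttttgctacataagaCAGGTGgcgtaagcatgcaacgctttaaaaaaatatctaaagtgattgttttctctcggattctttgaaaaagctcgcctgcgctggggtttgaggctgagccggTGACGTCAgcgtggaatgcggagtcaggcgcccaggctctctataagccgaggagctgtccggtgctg
Each of the 3 windows holds at least 1 E-box, and that of Scg2 also holds a cyclic AMP response element. The Prox1 window belongs to 1 of 2 listed starts. These RefSeq starts are not those of the gene annotation behind the spans given below: the Id2 window lies inside the Id2 span of that annotation, and the Scg2 window overlaps the Scg2 span. E-boxes were no more frequent before genes that ranked higher or lower with Id2 than before other genes. The motif was found in 53.8% of 251 promoters of the genes ranked higher (defined below), in 53.8% of 26 promoters of those ranked lower, in 56.2% of 8619 promoters of measured genes and in 66.2% of all 32851 promoters. The sequence TGACGTCA was found in 4.78%, 7.69%, 2.83% and 1.55% of them; in the 26 promoters of genes ranked lower this is 2 promoters.

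Id2 (ENSMUSG00000020644.9, GRCm38 chromosome 12, 25093799 to 25097140, minus strand) ranged over the 19 high-Id2 cells from 1613 to 3025 CPM with a median of 1945 CPM. In the 19 low-Id2 cells it ranged from 0 to 863 CPM with a median of 421 CPM, and 2 of these cells had no Id2 read. The last cell inside the high group had 1613 CPM and the first outside it 1491 CPM; the last inside the low group had 863 CPM and the first outside 936 CPM. The ranking thus cuts a graded series of cells at both limits. Inside the low group there was a break, from 238 CPM in the cell K119 to 24.3 CPM in the next, K76. Cells ranked below K76 held 14.2 CPM or less. These values chose the cells and are no finding. The mean of the low-Id2 cells, 369 CPM, lay above the 122.9 CPM of cells without an injection and near the 419 CPM of day 14 cells. K76 and the cells ranked below it lay under both of those levels.

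**Figure D1:**
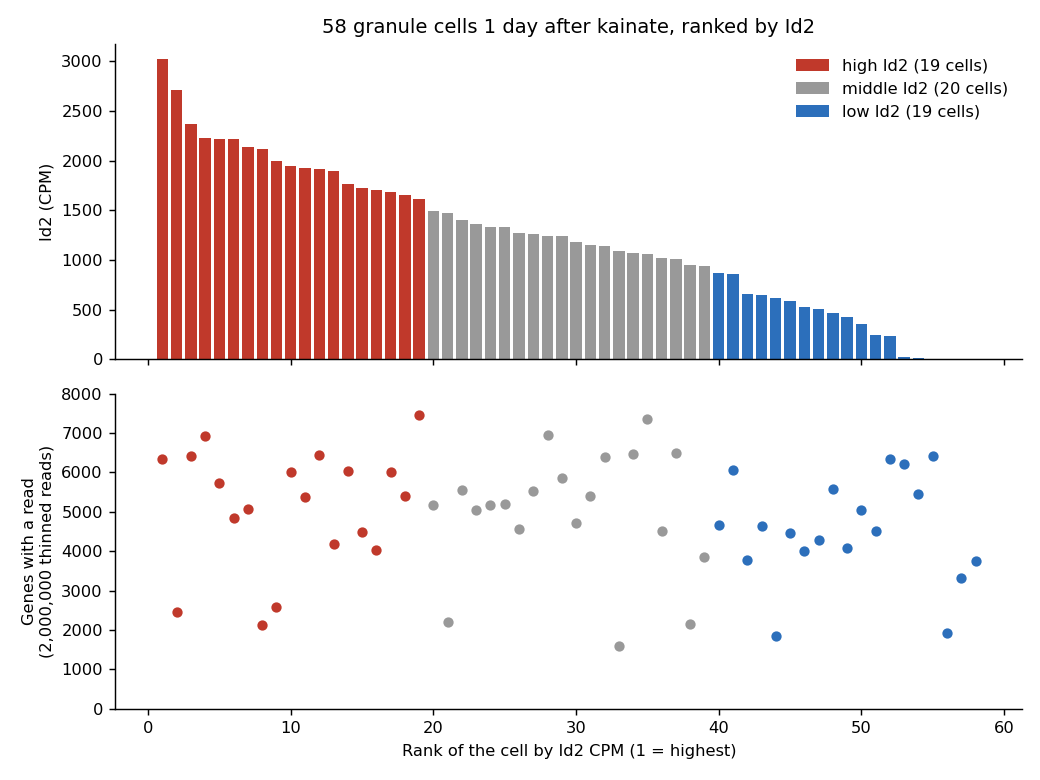
Top, Id2 in CPM in each of the 58 day 1 cells, ranked from highest to lowest, with the 19 high-Id2 cells in red, the 20 middle cells in grey and the 19 low-Id2 cells in blue. Bottom, the number of genes with a read in each cell after thinning to 2000000 reads; the median was 5392 in high-Id2 and 4504 in low-Id2 cells.

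The high-Id2 cells were also sequenced somewhat deeper and gave more genes. Reads counted in genes ranged from 4600020 to 18625400 with a median of 7208420 in high-Id2 cells, and from 2655960 to 23260800 with a median of 6491670 in low-Id2 cells. In 65.7% of the 361 pairs made of 1 cell of each group, the high-Id2 cell had more reads. After thinning every cell to 2000000 reads, the high-Id2 cell still had more genes in 64.1% of pairs. Over the 58 cells, the Spearman correlation of Id2 with this number of genes was 0.19. The part of depth and of the number of genes in the differences below was not tested. No 2 of the 58 cells were near copies: the correlation between cells lay between 0.164 and 0.483.

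Genes with a read in at least 12 of the 58 cells and a mean of at least 5 CPM were called measured, 8649 in all without Id2. Mean CPM was 2-fold or more higher in high-Id2 cells for 1267 genes (14.6%) and 2-fold or more lower for 1443 (16.7%). With the mean of log2(CPM + 1) in place of mean CPM, these counts were 2213 and 803. Mean CPM in single cells is often set by 1 or 2 cells, so a measure of rank was used beside it: the share of the 361 pairs in which the high-Id2 cell had more of a gene, with ties counted equally to both sides. This share was at least 0.70 for 271 genes (3.13%), called ranked higher, and at most 0.30 for 27 genes (0.312%), called ranked lower. Both rules together held for 181 genes (2.09%) on the higher side and 24 (0.277%) on the lower. The median share of all measured genes was 0.526, and 62.2% of genes had a share above 0.5, although mean CPM was higher in high-Id2 cells for only 48.5%.

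The count of genes ranked lower rests on single cells. It was 60 without the low-Id2 cell K70, 44 without K115, 41 without K123 or K128, and 17 without the high-Id2 cell K84. With 29 against 29 cells, only 60 genes ranked higher and 6 ranked lower.

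Cells that the ranking did not use gave a mixed picture. Among the 20 middle day 1 cells, Id2 still varied, but 145 of the 271 genes ranked higher (53.5%) had a positive Spearman correlation with Id2, close to the 50% of all measured genes. Of the 27 genes ranked lower, 12 (44.4%) had a negative correlation there, against 49.8% of all genes. Among the 29 cells of day 14, 196 of the 271 (72.3%) were positive against 57.8% of all genes, and 18 of the 27 (66.7%) were negative against 42.1%. The direction seen at the ends of the day 1 ranking was thus not found beyond the background in the middle of the same ranking, and was found more often than the background at day 14. Genes are not independent replicates, and the middle cells span a narrower range of Id2.

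**Figure D2:**
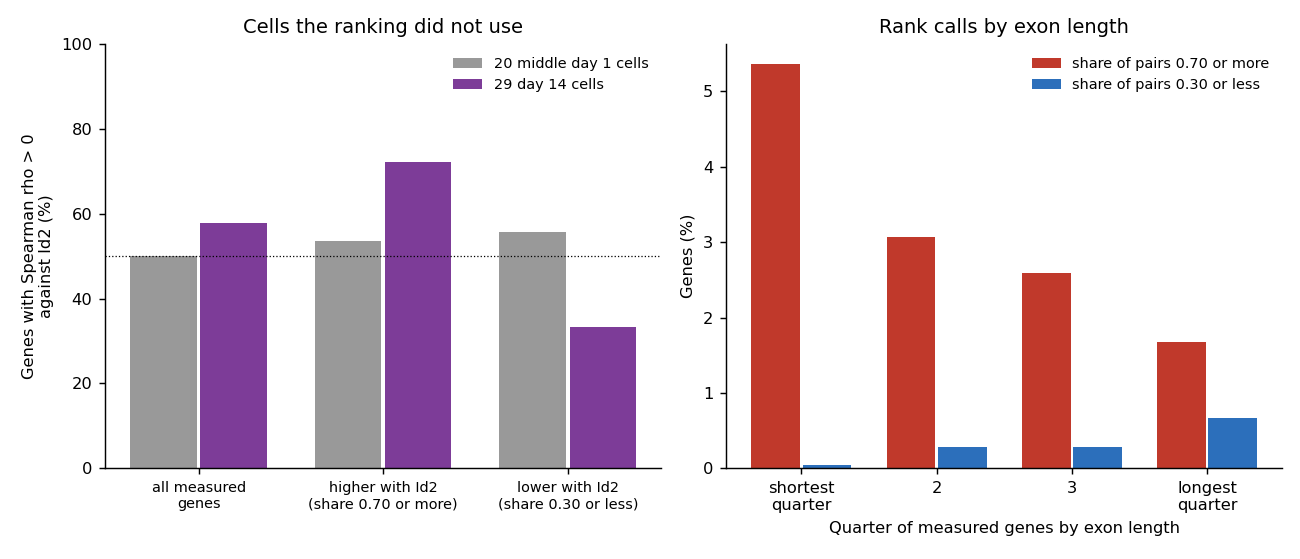
Left, the percent of genes with a positive Spearman correlation with Id2 in the 20 middle day 1 cells (grey) and the 29 day 14 cells (purple), for all measured genes and for genes ranked higher or lower with Id2; the dotted line marks 50%. Right, the percent of genes ranked higher (red) and lower (blue) in each of 4 classes of genes by exon length, from 5.36% and 0.0479% in the shortest to 1.68% and 0.67% in the longest.

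The 12 genes that stood highest in high-Id2 cells belong to varied functions. They had to keep 1 sign by mean CPM, by summed counts and by mean of log2(CPM + 1), to be ranked higher, and to keep that sign without any single cell. Of the 12, 11 are described here. Csnk2a1, the catalytic subunit of casein kinase 2 (ENSMUSG00000074698.10, GRCm38 chromosome 2, 152226839 to 152281852, plus strand), ranged from 0 to 134 CPM with a median of 8.96 CPM in high-Id2 cells and from 0 to 16.6 CPM with a median of 0 CPM in low-Id2 cells. It had a read in 15 of 19 against 7 of 19 cells, and its mean was 28.4 against 1.38 CPM. The groups overlapped: 4 high-Id2 cells had none, and the highest low-Id2 cell lay above the median of the high-Id2 cells. The log2 ratio was 3.63 and the share of pairs 0.798, the highest of the 12. The mean of Csnk2a1 in the middle cells was 5.06 CPM, and its correlation with Id2 was 0.01 there and 0.00 at day 14.

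Rbpj, the DNA-binding factor through which Notch acts on its targets, had a mean of 28.9 against 0.693 CPM and a highest cell of 133 against 7.31 CPM. Its mean in the middle cells was 44.5 CPM, above that of the high-Id2 cells. Ybx3, a cold-shock domain protein that binds nucleic acids, had a mean of 31.6 against 0.739 CPM. Genes of protein and RNA handling stood beside them. Eif3f, a translation initiation subunit, had a mean of 91.6 against 6.61 CPM, and Mrpl13, a protein of the mitochondrial ribosome, 77.4 against 14.9 CPM. Elac2, which trims transfer RNA precursors, had 110.2 against 9.33 CPM, and Pcf11, a factor of transcript cleavage, 138 against 24.6 CPM. The peptidase gene Dpp8 had 108.01 against 9.58 CPM and the palmitoyltransferase gene Zdhhc21 32.5 against 1.63 CPM. Myl12a, a myosin regulatory light chain, had 148 against 25.1 CPM and the small GTPase gene Rras2 93.2 against 14.4 CPM.

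All 12 had a read in more high-Id2 than low-Id2 cells, and the mean of the middle cells lay between those of the groups in 11 of 12. Genes chosen for large differences between these groups would mostly show both, so the 2 counts are no support. The correlation of the 12 genes with Id2 had the same sign in the middle cells for 5 of 12 and at day 14 for 6 of 12. Leaving out 1 cell moved 10 of the 12 folds by over 1.5 times, in each case upwards. Among them, the log2 ratio was 5.95 for Elac2 without K108, 4.68 for Eif3f without K119, 4.48 for Pcf11 without K87, 4.37 for Myl12a and 3.11 for Mrpl13 without K86, 3.64 for Rras2 without K114, 4.46 for Dpp8 and 4.26 for Csnk2a1 without K76, and 4.63 for Zdhhc21 without K102. Each of these cells is a low-Id2 cell with reads of the gene. With cells labelled as failing ranked too, the log2 ratio of Eif3f, 3.60, turned to -1.67.

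The 12 genes that stood lowest in high-Id2 cells, chosen by the same rule, were also of varied functions. Gcn1l1, an activator of the kinase that senses amino acid shortage, ranged from 0 to 66.2 CPM with a median of 0 CPM in high-Id2 cells and from 0 to 476 CPM with a median of 105.4 CPM in low-Id2 cells. Its mean was 6.47 against 152 CPM, the log2 ratio -4.36 and the share of pairs 0.249, with a read in 5 against 12 cells. Low-Id2 cells thus held most of its reads, though 7 of them had none. Without the high-Id2 cells K123 or K101 its log2 ratio was -5.21 or -5.02. Tfrc, the transferrin receptor that brings iron into cells, ranged from 0 to 339.8 CPM with a median of 40.98 CPM in high-Id2 cells and from 0 to 1218 CPM with a median of 215 CPM in low-Id2 cells. Ppox, an enzyme of haem synthesis, had a mean of 33.96 against 109.7 CPM.

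Slitrk2, a synaptic adhesion protein of neurons, had the lowest share of pairs of all measured genes, 0.227. It had a read in all 38 cells at low level, from 0.145 to 13.6 CPM in high-Id2 cells and from 0.348 to 126.5 CPM in low-Id2 cells. Fbxw11, a subunit of a ubiquitin ligase that marks beta-catenin for breakdown, had a mean of 157 against 440.4 CPM, and Ubr3, another ubiquitin ligase, 67.6 against 176 CPM. Micall1, a protein of recycling endosomes, had 43.8 against 176 CPM, and the amino acid transporter gene Slc7a6 11.04 against 72.2 CPM. Zgpat (21.1 against 159 CPM), Zdhhc8 (16.1 against 88.7 CPM), Tmx3 (31.96 against 117.1 CPM) and Efr3b (28.1 against 87.6 CPM) completed the 12. In none of the 12 did more high-Id2 than low-Id2 cells have a read, and the middle mean lay between the groups for 10. Both counts again follow largely from the way the genes were chosen. The correlation with Id2 had the same sign in the middle cells for 6 of 12 and at day 14 for 6 of 12. Leaving out 1 cell moved 6 of these 12 folds by over 1.5 times. The log2 ratio of Slc7a6 was -1.39 without K109 and -3.60 without K123, that of Ubr3 -2.58 without K94, that of Ppox -2.40 without K95, that of Efr3b -2.22 without K123 and that of Zgpat -3.58 without K80. The ratio turned to 2.30 for Tmx3 with failing cells ranked too, to 0.58 for Efr3b with 10 against 10 cells and to 1.40 for Slc7a6 in the cells with titles up to K94.

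**Figure D3:**
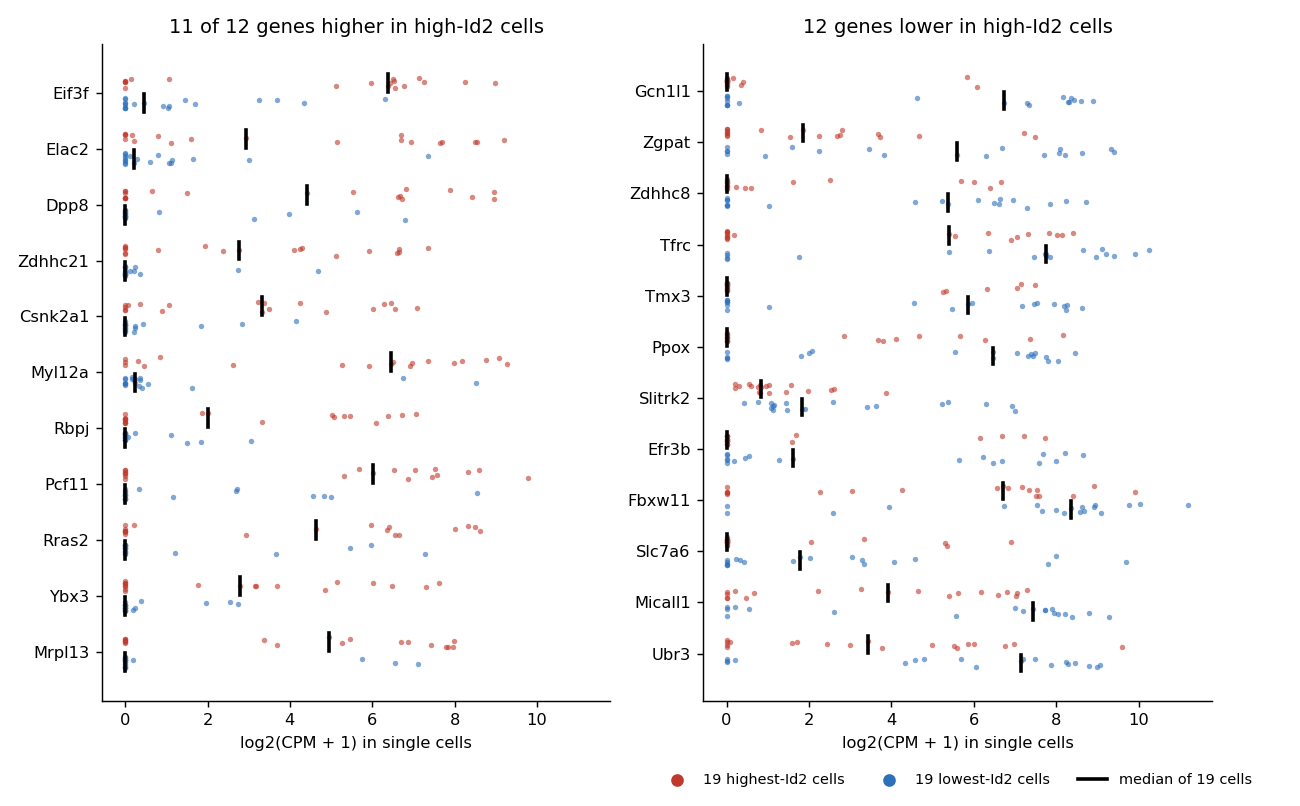
Expression as log2(CPM + 1) of 11 of the 12 highest (left) and all 12 lowest (right) genes in each of the 19 high-Id2 cells (red) and 19 low-Id2 cells (blue), with black bars at the median of 19 cells. Cells without a read lie at 0, and the groups overlap for each gene shown.

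Among the partners and relatives of Id2, the E protein genes Tcf4 and Tcf12 differed little in rank. Tcf4 ranged from 0.217 to 1182 CPM with a median of 281 CPM in high-Id2 cells and from 0 to 1628 CPM with a median of 308 CPM in low-Id2 cells, a share of pairs of 0.524. Tcf12 had a mean of 104.7 against 85.3 CPM, also with a share of 0.524, and many cells of each group had no read of it. Tcf3 had a read in 6 against 2 cells, at a mean of 9.04 against 0.0166 CPM. Without K107, a high-Id2 cell with 121.2 CPM of Tcf3, the log2 ratio moved from 3.30 to 1.91, and it was -0.13 with 29 against 29 cells and -0.0090 in cells above the median depth. Id1 had a read in 1 high-Id2 and 2 low-Id2 cells and Id4 in 0 and 2, Id3 had no read in the 38 cells, and all 3 were below the level of a measured gene.

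Of 40 Id and bHLH regulators, 23 were measured, with 14 higher and 9 lower and a median log2 ratio of 0.35, against -0.03 for all measured genes. Of them, 6 passed 2-fold higher and 2 passed 2-fold lower, against 14.6% and 16.7% of all genes, and 1 ranked higher, which is 4.35% against 3.13% of all genes. That gene was Mxi1, an antagonist of Myc, at a mean of 103.7 against 19.95 CPM, with a read in 12 against 5 cells and a log2 ratio of 2.32 (3.31 without K128 and 2.98 without K119). Its mean in the middle cells was 35.5 CPM. Neurod1, a bHLH factor of the granule cell lineage, had a mean of 97.5 against 50.9 CPM with a read in 12 against 5 cells. Its log2 ratio of 0.92 was 1.67 without K127. Hes6, a repressor-type bHLH gene, had a mean of 18.7 CPM with a read in 6 high-Id2 cells, and a read in 1 low-Id2 cell; its log2 ratio of 4.28 was 3.68 without K71. Usf2 had a mean of 17.4 against 2.44 CPM, a log2 ratio of 2.42 that was 3.85 without K102. Bhlhe22, a bHLH repressor of neuronal differentiation, lay the other way, at 7.84 against 46.7 CPM.

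The granule cell label was checked on its markers. Prox1, the homeobox factor that specifies granule cells (ENSMUSG00000010175.13, GRCm38 chromosome 1, 190118035 to 190170714, minus strand), had a read in 17 high-Id2 and 13 low-Id2 cells. It ranged from 0 to 1109.6 CPM with a median of 219.6 CPM in high-Id2 cells and from 0 to 371 CPM with a median of 22.4 CPM in low-Id2 cells. Its mean was 346 against 75.5 CPM, the log2 ratio 2.18 and the share of pairs 0.762. High-Id2 cells thus held more Prox1 RNA, but in the middle cells its correlation with Id2 was -0.35 and at day 14 it was 0.09. Of 19 measured granule cell markers, 13 were higher and 6 lower, with a median log2 ratio of 0.45 and a mean of -0.04, which differ in sign. Past 2-fold, 2 of the 19 were higher and 3 were lower, against 14.6% and 16.7% of all genes. The markers as a set thus did not favour 1 group. The calcium buffer Calb1 had a mean of 391 against 222 CPM at a share of 0.532, and Pdzd2 121.8 against 52.8 CPM (log2 ratio 1.19, 0.55 without K89, and -0.34 with 29 against 29 cells).

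Genes that stood higher at day 1 of kainate as a group mostly did not stand higher in the cells with most Id2. The 21 genes taken from an earlier comparison of these day 1 cells with cells without an injection had a median log2 ratio of -0.51, with 15 of 21 lower. Of the 21, 8 were past 2-fold lower and 3 past 2-fold higher, against 16.7% and 14.6% of all genes; 1 ranked lower (Acan) and 0 ranked higher, against 0.312% and 3.13%. That list was chosen on these cells and is no independent evidence. Its median was 0.43 with 10 against 10 cells, 0.39 in cells at or below the median depth, 0.10 with cells labelled as failing ranked too, and -0.22 without K81. Penk, the enkephalin precursor, ranged from 0 to 16267 CPM with a median of 94.6 CPM in high-Id2 cells and from 0 to 60489 CPM with a median of 2097 CPM in low-Id2 cells. Its mean was 1929 against 11347 CPM (log2 ratio -2.56, and -3.32 without K117) but its share of pairs was 0.410, with a read in 15 against 13 cells, so the groups differed far more in mean than in rank. Npy, the neuropeptide Y precursor, had a mean of 376 against 625 CPM and yet ranked the other way, at a share of 0.639. The log2 ratio of Npy, -0.73, was 1.37 without K70, a low-Id2 cell with 9261 CPM. Pdyn, the dynorphin precursor, had a mean of 346 against 724 CPM at a share of 0.442. Its log2 ratio of -1.06 was -0.31 without K70, -2.07 without K107 and -1.71 without K89. The ratio of Pdyn turned to 0.77 with 10 against 10 cells, 1.61 in cells at or below the median depth and 0.12 in titles from K95.

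Acan, the core proteoglycan of perineuronal nets, ranged from 0 to 339.5 CPM with a median of 64.4 CPM in high-Id2 cells and from 0 to 876 CPM with a median of 185 CPM in low-Id2 cells, a share of pairs of 0.287. Sorcs3, a sorting receptor, had a mean of 444.1 against 506 CPM, and Inhba, an activin subunit, 801 against 912 CPM. The guidance cue gene Sema3e had 70.2 against 223 CPM and Tvp23a 40.1 against 125.9 CPM. Gap43, a growth cone protein, was higher, at 132 against 37.3 CPM with a read in 8 against 3 cells (log2 ratio 1.80, and 2.73 without K77). Of 11 measured genes that were lower at day 1 in the earlier comparison, 6 were higher and 5 lower, with a median of 0.17.

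Activity-regulated genes lay on both sides over the 38 cells: 25 of 55 were higher and 30 lower, 6 and 8 past 2-fold (against 14.6% and 16.7% of all genes), with a median of -0.05. The median was not even across title numbers: it was -0.56 in titles up to K94 and 0.71 in titles from K95. Siah2, a ubiquitin ligase, was the 1 that ranked higher (1.82% of the list, against 3.13%), at 122.2 against 36.95 CPM and a share of 0.738 (log2 ratio 1.70, and 2.37 without K114). Arc, a regulator of synaptic strength, had a mean of 1762 against 1798 CPM, Fos 508 against 501 CPM and Bdnf 1039 against 1273 CPM. Btg2, an antiproliferative gene, had 529 against 241 CPM (log2 ratio 1.13, 0.48 without K110, and -1.39 in titles up to K94). Crem, a cyclic AMP responsive factor, had 79.9 against 24.6 CPM (log2 ratio 1.66, 2.36 without K91, and -2.50 in titles up to K94), and Mafk 69.6 against 9.12 CPM (2.80, and 6.14 without K86).

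Neuropeptides and granins summed to 10863 CPM at the median high-Id2 cell and 14624 CPM at the median low-Id2 cell, with the high-Id2 cell above in 24.4% of pairs. Of 16 measured members 8 were higher and 8 lower, with a median log2 ratio of -0.22. The sum had a mean of 10710 CPM in high-Id2 and 23243 CPM in low-Id2 cells. Penk, described above with a higher mean in low-Id2 cells, held a large part of it in some cells, up to 60489 CPM in K102. Scg2, which codes for secretogranin II of dense-core vesicles, also carried much of that sum. It ranged from 68.1 to 9515 CPM with a median of 3961 CPM in high-Id2 cells and from 1602 to 13534 CPM with a median of 7339 CPM in low-Id2 cells. Its share of pairs was 0.271, and it had a read in all 38 cells. In the middle cells the mean was 3802 CPM, below both groups, and the correlation with Id2 was 0.28. Cck had a mean of 65.4 against 32.04 CPM, with a log2 ratio of -0.38 with 10 against 10 cells. Cartpt had 38.2 against 69.1 CPM (log2 ratio -0.84, and 0.30 without K114 or -2.24 without K107).

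Receptor and synaptic adhesion genes lay lower by mean CPM, though few of them differed in rank. Of 10 measured GABA receptor genes 8 were lower, with a median of -0.35 that turned to 0.24 by the mean of log2(CPM + 1), where all genes had 0.34. The summed level was 1331 CPM at the median high-Id2 cell and 2075 CPM at the median low-Id2 cell, with the high-Id2 cell above in 21.3% of pairs. Gabra2 had a mean of 195 against 382 CPM and Gabrb2 29.5 against 105.2 CPM, while Gabbr1, a GABA-B subunit, had 91.1 against 57.8 CPM. Gabrb2 had a log2 ratio of -1.80, which was -1.21 without K109, -2.54 without K90 and 0.20 in cells above the median depth.

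Of 15 measured glutamate receptor genes 10 were lower, with a median of -0.31 (-0.032 by the mean of log2(CPM + 1)), and 1 ranked lower, against 0.312% of all genes. That was Gria2, the subunit that makes AMPA receptors impermeable to calcium, with a mean of 866 against 1679 CPM. It ranged from 0 to 2286 CPM with a median of 841 CPM in high-Id2 cells and from 39.5 to 3821 CPM with a median of 1523 CPM in low-Id2 cells, a share of 0.299. Its correlation with Id2 was -0.13 in the middle cells and -0.41 at day 14. The kainate receptor gene Grik2 had 23.4 against 75.7 CPM (log2 ratio -1.65, and -2.43 without K71) and Gria4 10.1 against 42.0 CPM (-1.96, and -1.10 without K61, -2.71 without K80 or 0.023 in cells at or below the median depth).

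Synaptic adhesion genes had a median of -0.63, with 34 of 48 measured members lower, 14 past 2-fold lower (29.2% of the list against 16.7% of all genes) and 3 past 2-fold higher. Of these 48 members, 0 ranked lower and 0 ranked higher. Slitrk2, described above as ranked lower, is not a member of this list. Slitrk5 had a mean of 34.9 against 151 CPM (share 0.327), Il1rap 14.2 against 71.5 CPM (log2 ratio -2.26, and -3.24 without K95), Cdh8 27.9 against 80.2 CPM and Cdh10 23.2 against 58.1 CPM (-1.29, and -2.21 without K123, -1.93 without K97, 0.33 with 10 against 10 cells or 0.11 in titles from K95). With the mean of log2(CPM + 1) the list's median was -0.31, against 0.34 for all genes. Axon guidance genes (median -0.32, 16 of 29 lower) and ion channel genes (median -0.17, and 0.22 by the mean of log2(CPM + 1), 30 of 50 lower) lay nearer to all genes. Of the channel genes, Kcna1 had a mean of 258 against 59.2 CPM (share 0.698), and Kcnab2, a subunit that joins such channels, ranked higher at 35.9 against 7.73 CPM (log2 ratio 2.08, and 2.81 without K127). Rgmb, a BMP co-receptor of the guidance list, ranked higher at 15.4 against 1.47 CPM (2.73, and 3.45 without K119).

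Ribosomal protein and respiratory chain genes stood a little higher in many members, with medians below the 0.5 at which a list was called. Of 73 cytosolic ribosomal protein genes 60 were higher, with a median of 0.44, and 10 (13.7%) ranked higher against 3.13% of all genes. Rps27 ranged from 0 to 309.9 CPM with a median of 98.9 CPM in high-Id2 cells and from 0 to 128.01 CPM with a median of 40.1 CPM in low-Id2 cells, a share of 0.830. Rpl14 had a mean of 313 against 125.5 CPM, Rpsa 329 against 152 CPM and Rpl30 125.6 against 52.6 CPM. Ribosomal protein genes have many processed pseudogenes, so their counts can be split among copies. Of 75 nuclear-encoded respiratory chain genes 55 were higher, with a median of 0.33, and 9 (12%) ranked higher. Ndufv3, a complex I subunit, had a mean of 82.5 against 19.5 CPM with a read in 16 against 9 cells and a share of 0.795. Cox7b had 134 against 57.1 CPM, Ndufa11 175 against 84.4 CPM and Ndufb2 117.04 against 53.6 CPM. The 10 measured genes of the mitochondrial genome had a median of 0.05.

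Exon length moved with these lists. Median exon length was 1009 bases for the ribosomal list, 1021 for the respiratory chain list, 6322.5 for synaptic adhesion and 5766 for GABA receptors, against 3525 for all measured genes with a length. Genes were cut into 4 classes of length. In the shortest class 5.36% ranked higher and 0.0479% ranked lower, and in the longest class 1.68% and 0.67%. Across 8351 genes the Spearman correlation of the share of pairs with exon length was -0.13. The part of length in the results for these lists was not tested. Without the 4 cells rich in microglia markers the ribosomal median was 0.15.

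**Figure D4:**
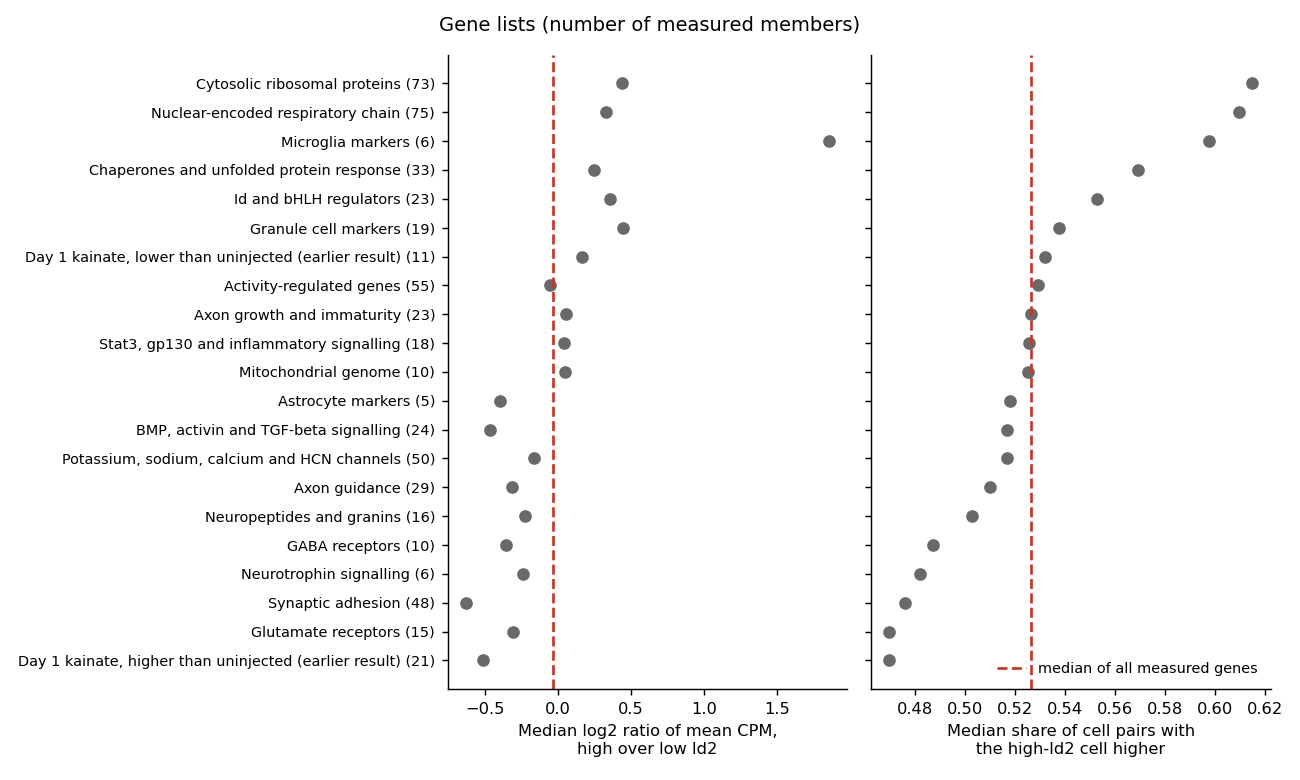
Median log2 ratio of mean CPM (left) and median share of pairs with the high-Id2 cell higher (right) for each gene list with at least 3 measured members, ordered by the share, with the number of measured members in brackets. Dashed lines mark the medians of all 8649 measured genes, -0.03 and 0.526.

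Genes of signalling pathways showed no common direction. Of 24 measured BMP, activin and TGF-beta genes 10 were higher and 14 lower, with a median of -0.46 and a mean of 0.00. Their median was -0.78 in titles up to K94 and 0.92 in titles from K95. Skil, which restrains Smad signals, ranked higher: it ranged from 0 to 851 CPM with a median of 114.5 CPM in high-Id2 cells and from 0 to 557 CPM with a median of 15.9 CPM in low-Id2 cells. Its log2 ratio was 1.34 (1.97 without K86, and -0.71 with failing cells ranked too) and its share of pairs 0.729. Smad1, a carrier of BMP signals, had a mean of 111.3 against 43.03 CPM (1.35, 2.28 without K77, and -0.60 with 10 against 10 cells), Ski 64.99 against 17.7 CPM (1.82, and 2.56 without K87) and the activin-type receptor gene Acvr1c 19.1 against 98.1 CPM (-2.30, and -2.95 without K117). Smad3 had 96.03 against 67.4 CPM (0.50, but 3.05 without K86 and -0.16 without K71). Of 18 measured genes of Stat3, gp130 and inflammatory signalling 9 were higher and 9 lower, with a median of 0.04. Stat3 had a mean of 347 against 231 CPM, Il6st, the gp130 receptor itself, 6.38 against 64.7 CPM (-3.15, and -2.25 without K109 or -5.26 without K80) and Relb 15.2 against 85.1 CPM (-2.41, and -3.34 without K97 or -3.14 without K106).

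Ntrk2, the receptor of BDNF, ranked higher: it ranged from 0 to 959 CPM with a median of 191 CPM in high-Id2 cells and from 0 to 667 CPM with a median of 4.83 CPM in low-Id2 cells, a share of 0.709. The other 5 measured neurotrophin signalling genes did not rank higher, and the list had a median of -0.24. Stmn1, a destabiliser of microtubules that is high in young neurons, had a mean of 116.7 against 42.996 CPM and a share of 0.752, with a read in 16 against 10 cells. It and Prox1 were 2 of 23 measured axon growth and immaturity genes that ranked higher (8.7%), and that list had a median of 0.06. Of 33 measured chaperone and unfolded protein response genes 19 were higher, with a median of 0.25. Of the 33, 2 ranked higher, which is 6.06% against 3.13% of all genes. They were Hsp90aa1 and Hsph1, chaperones of the heat shock response, at 1133 against 831 CPM (share 0.748) and 1734 against 946 CPM (share 0.740).

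Markers of microglia, the macrophages of the brain, were higher in high-Id2 cells. Of 18 markers 6 were measured and all 6 were past 2-fold higher (14.6% of all genes were), with a median of 1.86, while 0 ranked higher. The summed level of the 18 ranged from 0 to 7223 CPM with a median of 192 CPM in high-Id2 cells and from 0 to 1855 CPM with a median of 66.3 CPM in low-Id2 cells; 1 marker had no read in either group. At least 1000 CPM was found in 3 of 19 high-Id2, 4 of 20 middle and 1 of 19 low-Id2 cells. The mean was 1006 CPM in high-Id2, 1829 CPM in middle and 198 CPM in low-Id2 cells. The middle mean rests largely on 1 cell, K79, with 28002 CPM. By median the summed level did not follow the order of Id2 either, as the middle cells, at 36.4 CPM, lay below both groups. C1qb, a complement component, had a mean of 206 against 29.0 CPM (log2 ratio 2.78, and 5.17 without K128), Fcer1g 66.5 against 8.44 CPM (2.84, and 5.15 without K128) and Csf1r 37.2 against 9.43 CPM (1.87, 2.82 without K86, and -0.15 in titles up to K94). Without K86, K108, K128 or K103 the median of the list was 2.74, 2.26, 2.21 or 1.47. The part of microglial RNA in the other results was not tested, and the 271 genes ranked higher numbered 300 without the 4 cells at or above 1000 CPM. Among markers of other cells, 5 of 15 astrocyte genes were measured (median -0.40), and the oligodendrocyte marker Mbp had a mean of 197 against 73.96 CPM. Of 12 interneuron markers 2 were measured. Of these, Gad1 had a mean of 591 against 912 CPM and a read in nearly all cells of both groups. In CA pyramidal cell markers 1 of 12 was measured and in endothelial and vascular markers 0 of 10.

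The genes most like Id2 over the 58 cells, by Spearman correlation among genes with a read in at least 40% of them, were Snrpd2 (0.52), a core protein of the spliceosome, Psmb5 (0.51), a catalytic subunit of the proteasome, Sssca1 (0.50), Rnf7 (0.48), Mlf2 (0.48) and Rps27 (0.47). These cells share the ranking, the depth and the day, so the values are descriptions. Psmb5 (ENSMUSG00000022193.7, GRCm38 chromosome 14, 54614119 to 54618022, minus strand) ranged from 0 to 438 CPM with a median of 168 CPM in high-Id2 cells and from 0 to 154 CPM with a median of 20.7 CPM in low-Id2 cells, a share of 0.828. Its correlation with Id2 was 0.00 in the middle cells and 0.44 at day 14. Snrpd2 had 0.62 in the middle cells and 0.06 at day 14, and Mlf2, read in all 38 cells at 1423 against 948 CPM, had 0.61 and 0.16. Sssca1 had a mean of 189 against 56.0 CPM. Rnf7, a RING subunit of ubiquitin ligases, had 132 against 37.6 CPM, and its log2 ratio of 1.78 was 3.11 without K128. The 6 lowest were Slitrk2 (-0.39), Ppox (-0.38), Klhl7 (-0.38), Slc22a17 (-0.37), Sec61a1 (-0.37) and Gcn1l1 (-0.36). Of these Slc22a17 had a mean of 120.2 against 361 CPM, Klhl7 98.8 against 263 CPM and Sec61a1, a channel of the endoplasmic reticulum, 313 against 577 CPM.

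**Figure D5:**
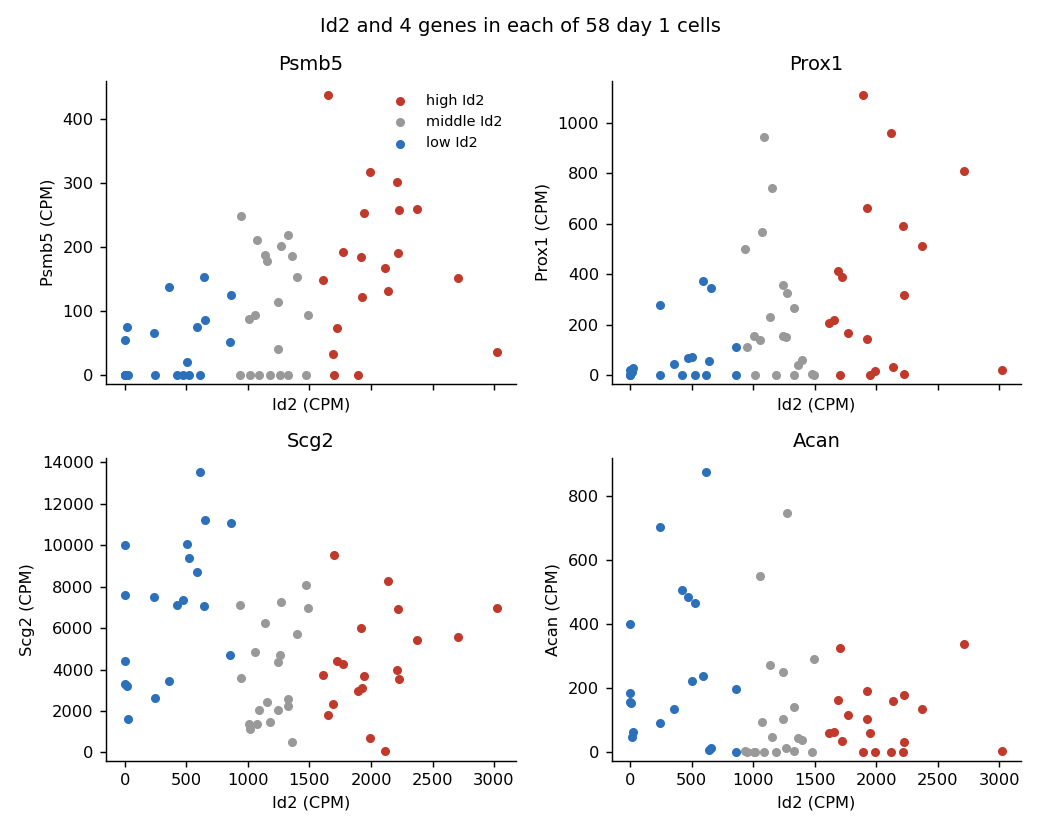
CPM of 4 genes against Id2 CPM in each of the 58 day 1 cells, with high-Id2 cells in red, middle cells in grey and low-Id2 cells in blue. Psmb5 and Prox1 reach higher values in high-Id2 cells, Scg2 and Acan in low-Id2 cells, and the middle cells overlap both groups.

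Cells that carried Id2 by virus, at a mean of 33969 CPM against 84.8 CPM with GFP, were set beside the named genes. Of the 12 highest genes 7 were also higher in Id2 virus than in GFP cells, against 48.4% of all measured genes, and 0 of them by 2-fold, against 11.9%. Of the 12 lowest 5 were also lower, against 51.5%, and 1 of them by 2-fold, against 11%. Gcn1l1 had a mean of 115.5 against 58.6 CPM there, Prox1 325 against 325 CPM and Scg2 727 against 1221 CPM. The virus cells were taken 1 month after the virus and without kainate, so the levels are given side by side only.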

How the data were processed

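Nextera XT was the library kit for the patched cells, per the labels' protocols. Trimmomatic, STAR, featureCounts and GRCm38 are named, without versions, in the submitters' processing notes. Sources used here give neither the counting strand nor the rule behind the quality label. For 22800 genes in 291 cells the authors deposited read counts, of which 0 were not whole. They also deposited a scaled signal for 252 cells that equals the counts of a cell times 1 factor. The names of the 2 tables point the other way, so the units were settled on the values. The counts were used and the scaled signal was tried as another setting.

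CPM was computed from each cell's total with Python 3.11.15, numpy 2.4.6, pandas 2.3.3 and scipy 1.17.1. A log2 ratio compares mean CPM over 19 cells after adding 1 CPM; a list is called at a median of 0.5 in size. Reads were thinned with seed 7. Of the 24 highest and lowest genes, the widest exact Poisson bound at 95% of the higher group's summed CPM lay 3.50% above it and covers counting error of reads without molecular identifiers only. Each cell is 1 library and no animal is named, so no test was made.

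The members, gene lists, rules and alternatives were chosen with earlier results of these data known. Named genes are the 12 highest and 12 lowest by whichever of 3 log2 ratios was nearest to 0 (mean CPM, summed counts, mean of log2(CPM + 1)) among genes with a read in at least 40% of the 38 cells that passed the rank rule and kept their sign in leave-one-out, leaving out predicted, Rik, pseudo, mitochondrial and ribosomal protein genes. From every list, at most 4 measured genes joined them, those for which the ratio nearest to 0 was largest in size, up or down. Genes named from a list are thus among its more extreme members and are not typical of it. Id1, Id3, Id4, Tcf3, Tcf4, Tcf12 and the 6 highest and 6 lowest by correlation with Id2 were added too. Npy, Pdyn, Inhba, Smad3, Stat3, Calb1, Arc, Fos, Bdnf, Hsp90aa1 and Hsph1 lie outside that rule and were added after their values were seen.

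The measures were tried on simulated cells. The log2 ratio recovered the simulated folds, but the rank rule missed about as many of the genes simulated as higher as it found, a limit first set stricter was then loosened, and the spread between simulated cells was an arbitrary choice. A gene that is not ranked higher or lower is therefore not shown to be equal. With no replicates to set a spread, a move of under 0.25 for a list or 0.5 for a gene on the log2 scale was counted as no change, which is a choice. Alternatives were the other ways of averaging, pseudocount, filter, scaling, depth, group size, ranking, quality label, microglia-rich cells, title numbers and single cells, and, chosen after seeing the data, leaving out cells under 4000 genes. Results for a few genes are not reported here.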

Additional observations from a re-analysis of the deposited data

How the results depend on the processing

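No paired analysis was possible because the replicate numbers are given in accession order only and both Id2 groups come from 1 labelled group. Depth limits genes of low level, and the rank rule depends on the number of cells. The counts of genes past 2-fold higher (1267) and lower (1443) were 2213 and 803 by mean of log2(CPM + 1), which moved the median of all genes from -0.03 to 0.34, and 2896 and 2900 without a filter. They were 2114 and 2459 in titles up to K94, 818 higher with 29 against 29 cells, 2613 higher above the median total, 2247 lower with 10 against 10 cells and 2361 lower at or below the median total. The count ranked higher (271) was 60 with 29 against 29 cells, 599 with 10 against 10, 939 above and 828 at or below the median total, 571 in titles up to K94 and 784 in titles from K95. The count ranked lower (27) was 6, 396, 309, 355, 553 and 1.2e+02 in the same settings, 142 with cells ranked by the scaled table, 10 with failing cells ranked too, 46 without microglia-rich cells, 137 without cells under 4000 genes (chosen after seeing the data) and 17 to 60 in leave-one-out. The smaller subsets have fewer cells, which widens the spread of the share.

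Medians of the lists, on the log2 scale, that moved by 0.25 or more, or were called and changed sign, were as follows, by setting. Medians near 0 of 5 lists (genes lower at day 1, Stat3 signalling, activity-regulated genes, axon growth, mitochondrial genome) also changed sign in some settings with smaller moves. By mean of log2(CPM + 1), they were 0.62 for Id and bHLH regulators, 0.28 for BMP, activin and TGF-beta signalling, 0.34 for activity-regulated genes, 0.22 for potassium, sodium, calcium and HCN channels, -0.032 for glutamate receptors, 0.24 for GABA receptors, -0.0082 for axon guidance, -0.31 for synaptic adhesion, 0.39 for axon growth and immaturity, 0.85 for chaperones and unfolded protein response, 0.91 for nuclear-encoded respiratory chain, 0.86 for cytosolic ribosomal proteins, 0.078 for neurotrophin signalling, 1.31 for microglia markers, 0.090 for astrocyte markers. Without a filter, they were 0.0089 for Id and bHLH regulators, -0.17 for BMP, activin and TGF-beta signalling, -0.67 for neuropeptides and granins, -0.53 for neurotrophin signalling, 0.048 for astrocyte markers. With cells ranked by the scaled table, they were 0.015 for Id and bHLH regulators, 0.18 for neuropeptides and granins, -0.0060 for axon guidance, 0.38 for mitochondrial genome, 0.91 for microglia markers, 0.14 for astrocyte markers. Above the median total, they were 0.87 for Id and bHLH regulators, -1.18 for genes higher at day 1, 1.45 for genes lower at day 1, 0.091 for BMP, activin and TGF-beta signalling, 0.39 for Stat3, gp130 and inflammatory signalling, 0.58 for potassium, sodium, calcium and HCN channels, 0.66 for axon guidance, 1.11 for granule cell markers, 0.52 for chaperones and unfolded protein response, 3.34 for microglia markers, 0.75 for astrocyte markers. In titles from K95, they were 0.75 for Id and bHLH regulators, -0.044 for genes higher at day 1, 0.92 for BMP, activin and TGF-beta signalling, 0.83 for Stat3, gp130 and inflammatory signalling, 0.71 for activity-regulated genes, 0.28 for neuropeptides and granins, 0.54 for axon guidance, -0.28 for synaptic adhesion, -0.27 for mitochondrial genome, 1.55 for microglia markers, 0.23 for astrocyte markers. Without cells under 4000 genes, they were 0.059 for Id and bHLH regulators, -0.18 for genes higher at day 1, -0.18 for genes lower at day 1, 2.12 for microglia markers. With 10 against 10 cells, they were 0.43 for genes higher at day 1, -0.14 for BMP, activin and TGF-beta signalling, -0.30 for Stat3, gp130 and inflammatory signalling, -0.54 for potassium, sodium, calcium and HCN channels, -1.02 for glutamate receptors, -0.022 for axon guidance, -0.076 for granule cell markers, 0.77 for cytosolic ribosomal proteins, 0.61 for mitochondrial genome, 0.077 for neurotrophin signalling, 3.04 for microglia markers, -1.20 for astrocyte markers. With failing cells ranked too, they were 0.10 for genes higher at day 1, -0.18 for BMP, activin and TGF-beta signalling, 0.095 for neuropeptides and granins, 0.087 for axon guidance, 0.69 for mitochondrial genome, 2.76 for microglia markers, -0.89 for astrocyte markers. Without microglia-rich cells, they were -0.20 for genes higher at day 1, 0.15 for cytosolic ribosomal proteins, -0.31 for mitochondrial genome, 1.18 for microglia markers. At or below the median total, they were 0.39 for genes higher at day 1, -0.92 for genes lower at day 1, -1.13 for BMP, activin and TGF-beta signalling, -0.31 for Stat3, gp130 and inflammatory signalling, -0.56 for potassium, sodium, calcium and HCN channels, -0.85 for glutamate receptors, -0.79 for axon guidance, -0.66 for granule cell markers, -0.59 for mitochondrial genome, -0.87 for astrocyte markers. With the scaled table, they were 0.44 for genes lower at day 1. With 29 against 29 cells, they were 0.030 for BMP, activin and TGF-beta signalling, 0.18 for neuropeptides and granins, 0.085 for axon guidance, -0.11 for granule cell markers, 0.015 for neurotrophin signalling, -0.054 for astrocyte markers. In titles up to K94, they were -0.78 for BMP, activin and TGF-beta signalling, -0.56 for activity-regulated genes, -0.0020 for GABA receptors, 0.075 for granule cell markers, 0.72 for cytosolic ribosomal proteins, 0.30 for mitochondrial genome, 4.10 for microglia markers, -0.93 for astrocyte markers. With summed counts, they were -0.26 for mitochondrial genome, 0.17 for astrocyte markers. With a pseudocount of 10 CPM, they were 1.45 for microglia markers. In leave-one-out, medians ranged from -0.59 to -0.22 for genes higher at day 1, -0.11 to 0.70 for genes lower at day 1, -0.81 to -0.24 for BMP, activin and TGF-beta signalling, -0.21 to 0.45 for Stat3, gp130 and inflammatory signalling, -0.25 to 0.21 for activity-regulated genes, -0.43 to 0.13 for neuropeptides and granins, -0.39 to 0.018 for axon guidance, 0.15 to 0.52 for granule cell markers, -0.34 to 0.25 for mitochondrial genome, 1.47 to 2.74 for microglia markers, -0.94 to 0.13 for astrocyte markers.

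Of 130 genes followed, 96 had a called ratio, of 2-fold or more. In 26 of these 96 it changed sign in some setting. With failing cells ranked too, the log2 ratio was -1.67 for Eif3f, 2.30 for Tmx3, -0.71 for Skil. With 10 against 10 cells, the log2 ratio was 0.58 for Efr3b, -0.60 for Smad1, -0.38 for Cck, 0.33 for Cdh10, -0.13 for Sdf2l1, 0.77 for Pdyn. In titles up to K94, the log2 ratio was 1.40 for Slc7a6, -2.50 for Crem, -1.39 for Btg2, 0.39 for Grin2d, -0.15 for Csf1r, 0.43 for Gad2. With 29 against 29 cells, the log2 ratio was -0.0068 for Cdk14, -0.91 for Me3, -0.34 for Pdzd2, -0.13 for Tcf3. At or below the median total, the log2 ratio was -0.95 for Cdk14, -0.015 for Socs7, 0.023 for Gria4, -0.63 for Ddx3y, 1.61 for Pdyn. Above the median total, the log2 ratio was 0.20 for Gabrb2, 4.95 for Sort1, 1.02 for Clu, 0.96 for Gad2, -0.0090 for Tcf3. In titles from K95, the log2 ratio was 2.47 for Sema5a, 0.11 for Cdh10, 0.12 for Pdyn. Without cells under 4000 genes, the log2 ratio was -0.49 for Ddx3y. Of the 96 named genes at 2-fold or more, 96 kept their sign with summed counts, mean of log2(CPM + 1) and leave-one-out. The highest and lowest named genes were required to keep their sign in those settings. List members were picked by a ratio set to 0 where the 3 ways of averaging differed in sign. For both kinds of genes the count is thus largely fixed by the choice and is no support. With a pseudocount of 10 CPM 96 also kept their sign, but a pseudocount cannot change the sign of a ratio of means. With the scaled table, thinning and ranking by the scaled table, 96 kept their sign. In the other settings 90 to 96 did. The number that also stayed past 2-fold was 56 with 29 against 29 cells, 72 in titles up to K94, 75 without cells under 4000 genes, 78 in leave-one-out and 77 to 96 in the other settings. The cause of these changes was not tested.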
